A study of Mus musculus with 12 samples.

Results

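The Bcl2 family decides whether a cell opens its outer mitochondrial membrane and dies. The data described here are the RNA levels of 10 of its genes, Bcl2, Bcl2l1, Mcl1, Bax, Bak1, Bbc3, Pmaip1, Bcl2l11, Bmf and Bid, in organoids of mouse prostate epithelium. The members were taken by gene name, and each had exactly 1 row among the 24674 genes measured. Organoids are small 3-dimensional cultures grown from epithelial cells in a gel. All 12 cultures were wild type, of the C57BL/6 strain and derived from basal cells of the prostate. There were 4 groups of 3 samples: vehicle, UK5099 alone, sodium butyrate alone, and UK5099 with sodium butyrate (the combination). UK5099 blocks the carrier that takes pyruvate across the inner mitochondrial membrane. Butyrate, a short-chain fatty acid, inhibits histone deacetylases, enzymes that remove acetyl groups from chromatin. Whether replicates came from separate mice was not given in the sources used here, so p-values measure the spread between these samples, which may be technical.

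The family has several roles. Bcl2, Bcl2l1 (BCL-XL) and Mcl1 are anti-apoptotic: they hold the killer proteins in check. Bax and Bak1 are the effectors, which form the pores that release cytochrome c. The BH3-only proteins Bbc3 (PUMA), Pmaip1 (NOXA), Bcl2l11 (BIM), Bmf and Bid report stress to the others: NOXA binds MCL1 above all, PUMA, BIM and cleaved BID engage every anti-apoptotic protein, BMF responds to loss of cell attachment, and BID links death receptors to mitochondria after cleavage by caspase-8. Much of this control lies in protein stability, cleavage and location, which RNA does not measure. Gene totals also cannot separate the long and short isoforms of Bcl2l1, Mcl1 and Bcl2l11, whose products can differ in activity.

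As deposited, 9 of the 10 genes had a lower mean level under every treatment, and Pmaip1 a higher one. Among 13345 genes of at least 1 TPM, the median change in log2(TPM + 1) was also negative. It was -0.12 under UK5099, -0.30 under butyrate and -0.41 with the combination. For Mcl1 under UK5099 the direction turned under another scaling, where its change with the combination did not pass the test. Pmaip1 did not pass the test under butyrate as deposited. Bcl2, Bbc3, Bmf and Bid, the low-level members that fell furthest, stood at 16.9%, 19.8%, 31.1% and 20.2% of their vehicle TPM with the combination, while Pmaip1 stood at 152%. To show the sequence beside the members with the deepest falls, the 250 bases before a start site of Bcl2, Bbc3 and Bid are given below. They are 5′ to 3′ on the gene's strand, from RefSeq on GRCm38.p6, with capitals marking the GC box GGGCGG, the core of the site bound by Sp1-type factors, or its reverse complement CCGCCC.

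Bcl2, chr1:106714291-106714540, minus strand: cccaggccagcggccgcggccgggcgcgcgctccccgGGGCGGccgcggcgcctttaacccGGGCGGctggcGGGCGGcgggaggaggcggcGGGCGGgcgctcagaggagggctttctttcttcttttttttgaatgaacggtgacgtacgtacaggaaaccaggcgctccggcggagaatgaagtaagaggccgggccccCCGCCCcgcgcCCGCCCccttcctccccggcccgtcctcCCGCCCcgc
Bbc3, chr7:16310181-16310430, plus strand: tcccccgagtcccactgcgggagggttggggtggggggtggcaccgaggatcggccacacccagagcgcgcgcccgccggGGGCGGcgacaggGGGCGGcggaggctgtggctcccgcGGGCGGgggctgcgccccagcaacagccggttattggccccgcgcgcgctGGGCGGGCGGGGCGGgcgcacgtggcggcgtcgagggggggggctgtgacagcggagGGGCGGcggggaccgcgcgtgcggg
Bid, chr6:120916825-120917074, minus strand: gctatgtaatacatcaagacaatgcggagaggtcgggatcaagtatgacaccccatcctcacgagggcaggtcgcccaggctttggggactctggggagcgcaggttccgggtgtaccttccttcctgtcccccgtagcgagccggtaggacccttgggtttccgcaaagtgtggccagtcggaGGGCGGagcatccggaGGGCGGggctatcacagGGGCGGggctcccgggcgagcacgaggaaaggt

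The Bcl2 window held 7 GC boxes and was 74.8% G and C, the Bbc3 window shown held 7 (some overlapping) and was 81.6%, and the Bid window held 3 and was 63.6%. Bbc3 had 2 other windows in the table, with 5 boxes (76.4%) and 1 box (72.4%), and the window shown is the one whose next bases lie in a GENCODE transcript. The median over 32851 windows of 250 bases was 52.4%. Start sites of 9 members were in the table, in 16 windows, and 9 of these windows, from 6 members, held at least 1 GC box, against 32.7% of all windows. The other members with a box were Mcl1, Bax and Bcl2l11, while Bcl2l1, Bak1 and Bmf had none in these windows. A p53 half-site on either strand was in 1 window each of Bax and Bmf (7.13% of all windows). The TATA box TATAAA was in no member's window (12.4% of all windows). CCAAT was in 5 of the 16 windows, from 3 members (33.8% of all windows), and CACGTG in 2, from 2 members (6.02%). Windows of the same gene can overlap, as some of Bbc3 do. A match of letters is a description and shows no binding.

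The values were TPM, abundances divided by gene length and scaled to the same total in each sample. The length used was the whole genomic span, introns included, so a gene with long introns has a low TPM for its RNA. Levels were therefore compared between genes only after the recovered fragments were divided by exonic length. Depth was 33252134 to 43499016 fragments per sample. Changes are limma coefficients, differences of mean log2(TPM + 1), with p-values adjusted by Benjamini-Hochberg over all 24674 genes. The addition of 1 understates the change of low genes such as Bcl2 and Bid. For these a second estimate from the fragments (voom) is given. Among 13345 genes of at least 1 TPM the median coefficient was -0.12 under UK5099, -0.30 under butyrate and -0.41 with the combination. Median of ratios scaling, which sets the typical gene to no change, moved these medians to 0.00, -0.03 and -0.03. A member is said to have risen or fallen only where its adjusted p was under 0.01 with the same sign on both scalings.

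Basal identity was checked on markers. All 5 basal and all 6 luminal markers were detected in every group. Trp63, which defines basal cells, had a mean of 5.23 TPM in vehicle and 9.59, 8.46 and 8.76 TPM under UK5099, butyrate and the combination. The other basal markers did not all follow it. Under UK5099, butyrate and the combination the coefficients were 1.42, 0.77 and 1.29 for Krt5, 1.59, -0.27 and 1.12 for Krt14, 0.25, -0.32 and -0.65 for Krt15, and 0.68, -0.19 and 0.29 for Itga6. The 5 basal markers, most of whose total is keratins, summed to 6531-6657 TPM in vehicle, 13496-13878 under UK5099, 6920-7158 under butyrate and 9983-10391 with the combination. The 6 luminal markers summed to 5147-5347, 3048-3185, 2863-2895 and 1791-2005 TPM in the same order. The 8 squamous differentiation markers summed to 453-466, 2144-2575, 1304-1382 and 3351-4533 TPM. These sums moved with the treatments, and their part in the members' changes was not tested. In bulk samples fewer cells of a type and less RNA per cell cannot be told apart. Fibroblast and smooth muscle markers summed to at most 1.74 TPM, endothelial to at most 0.0934 and neuroendocrine to at most 0.827. These TPM divide by genomic span. In fragments the sums ranged over samples from 240 to 348, from 21 to 91 and from 113 to 529, so low TPM does not show absence. Of 8 leukocyte markers 4 were in the table, and their sum was nearly all Cd68 (24.2, 30.2, 67.4 and 91.7 TPM), with Ptprc, which defines leukocytes, at or below 0.00163 TPM. The first replicates of the UK5099 and combination groups differed from their partners by a chi-square per gene of 6.29 to 6.64, against 1.93 to 2.65 for other pairs, and counts without both are given below.

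**Figure D1:**
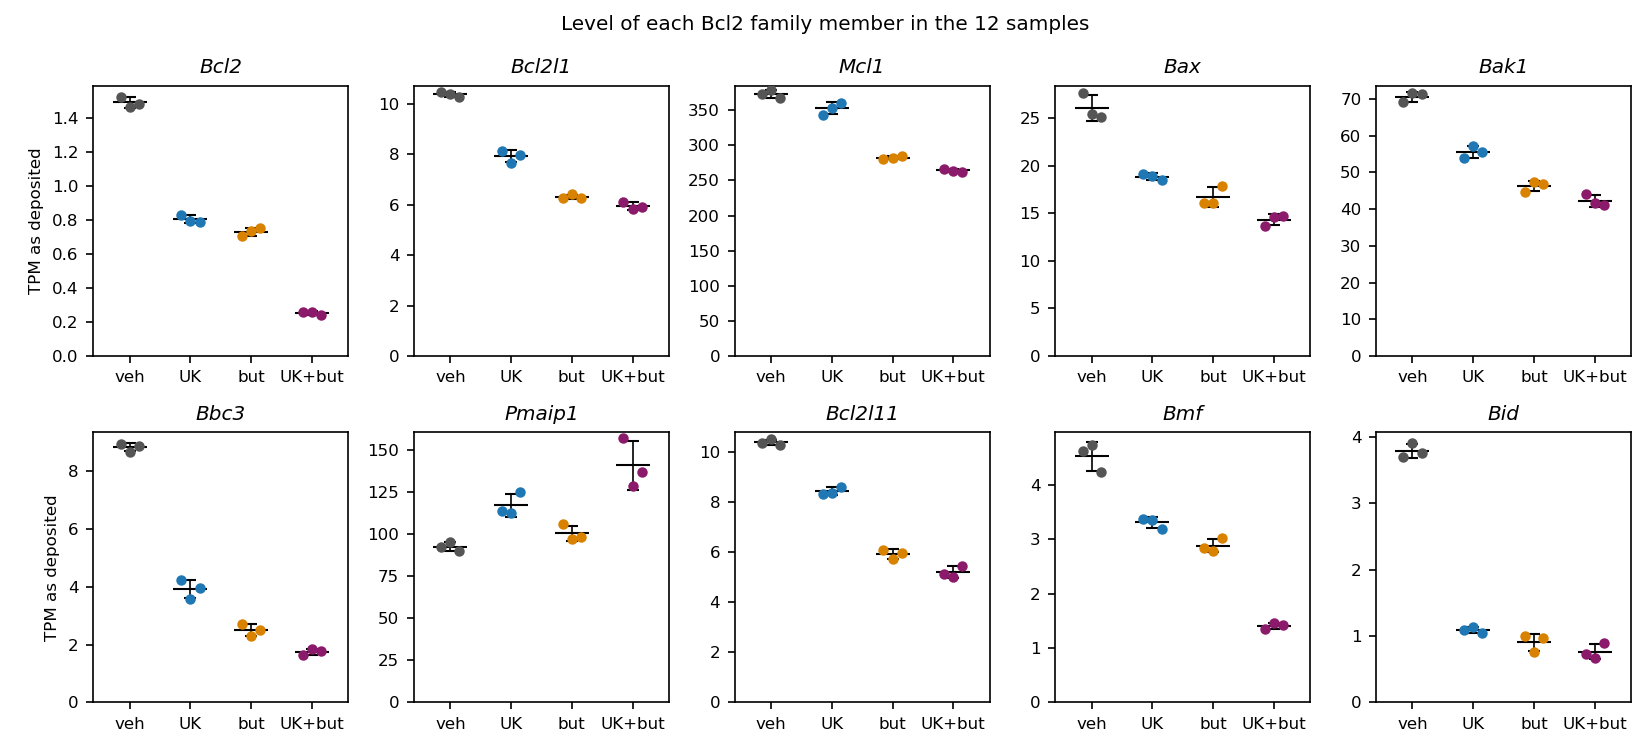
Deposited TPM (vertical axes, each from 0) of the 10 members in vehicle (veh), UK5099 (UK), butyrate (but) and the combination (UK+but). Points are samples, horizontal lines are means and bars are ± 1 SD (n = 3); Bcl2 and Bmf step down again with the combination, Bid is low under all 3 treatments, and Pmaip1 is above vehicle under all 3.

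Divided by exonic length, Mcl1 was the most abundant member in vehicle at 270 ± 3.20 TPM (SD, n = 3), followed by Bak1 at 152 ± 3.43, Pmaip1 at 134 ± 3.48, Bcl2l1 at 65.1 ± 0.326, Bax at 48.5 ± 2.39, Bcl2l11 at 26.6 ± 0.244, Bbc3 at 23.0 ± 0.372, Bcl2 at 16.2 ± 0.292, Bid at 14.97 ± 0.430 and Bmf at 10.2 ± 0.552. No neighbours in this order overlapped between samples. By this measure Bcl2 was the lowest of the 3 anti-apoptotic genes, and Bak1 exceeded Bax. With UK5099 Pmaip1, at 166-182 TPM, passed Bak1 at 119-125, and Bmf (7.20-7.79) passed Bid (4.12-4.56). With butyrate Pmaip1 again lay above Bak1, and Bbc3 (6.49-7.64) and Bmf (6.80-7.34) overlapped. With the combination Pmaip1 (205-247) overlapped Mcl1 (207-209) at the top, and at the bottom Bid (2.92-3.85) overlapped both Bmf (3.28-3.59) and Bcl2 (2.84-3.06). All levels in this paragraph are exonic-length TPM. Below, TPM means the value as deposited.

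Counted over the family, 10 of 10 members passed an adjusted p of 0.01 for UK5099. For butyrate 9 of 10 passed, and for the combination 10 of 10. Of all genes 33%, 45.6% and 51% passed, and of genes of at least 1 TPM 50.4%, 69.2% and 75.4% did. On both scalings, UK5099 lowered 8 members and raised 1, where 13.7% of all genes were lower and 8.19% higher. Butyrate lowered 9 and raised 0 on both scalings, where 20.3% were lower and 9.69% higher. The combination lowered 8 and raised 1, where 22.5% were lower and 10.1% higher. Among genes of at least 1 TPM, which is the nearer background since most members exceed it, the lower shares were 20.1%, 32.2% and 34.7%. The median member coefficient was -0.35, -0.61 and -0.85, against -0.12, -0.30 and -0.41 over genes of at least 1 TPM. Over all genes, many of them barely detected, it was -0.03, -0.07 and -0.11. After median of ratios scaling the member median was -0.22, -0.33 and -0.42. The scaled median was 0.00, -0.03 and -0.03 over genes of at least 1 TPM, and 0.00, 0.00 and 0.01 over all genes. Past both an adjusted p of 0.01 and an absolute coefficient of 1 lay 1 member under UK5099 (Bid), where 0.912% of all genes were that much lower. Butyrate had 2 such members (Bbc3 and Bid; 2.42%), and the combination had 3 (Bbc3, Bmf and Bid; 4.63%). Of genes of at least 1 TPM, 1.52%, 4.19% and 8.15% were that much lower under UK5099, butyrate and the combination. Bbc3 under UK5099, at a coefficient of -0.999, lay just inside the limit, and the UK5099 count was 2 without vehicle replicate 2, UK5099 replicate 1 or UK5099 replicate 3. Voom put 5 members past both limits with the combination, adding Bcl2 and Pmaip1, but no share of all genes is given for voom. Without both first replicates that stood apart, 9, 9 and 10 members passed the adjusted p for UK5099, butyrate and the combination.

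**Figure D2:**
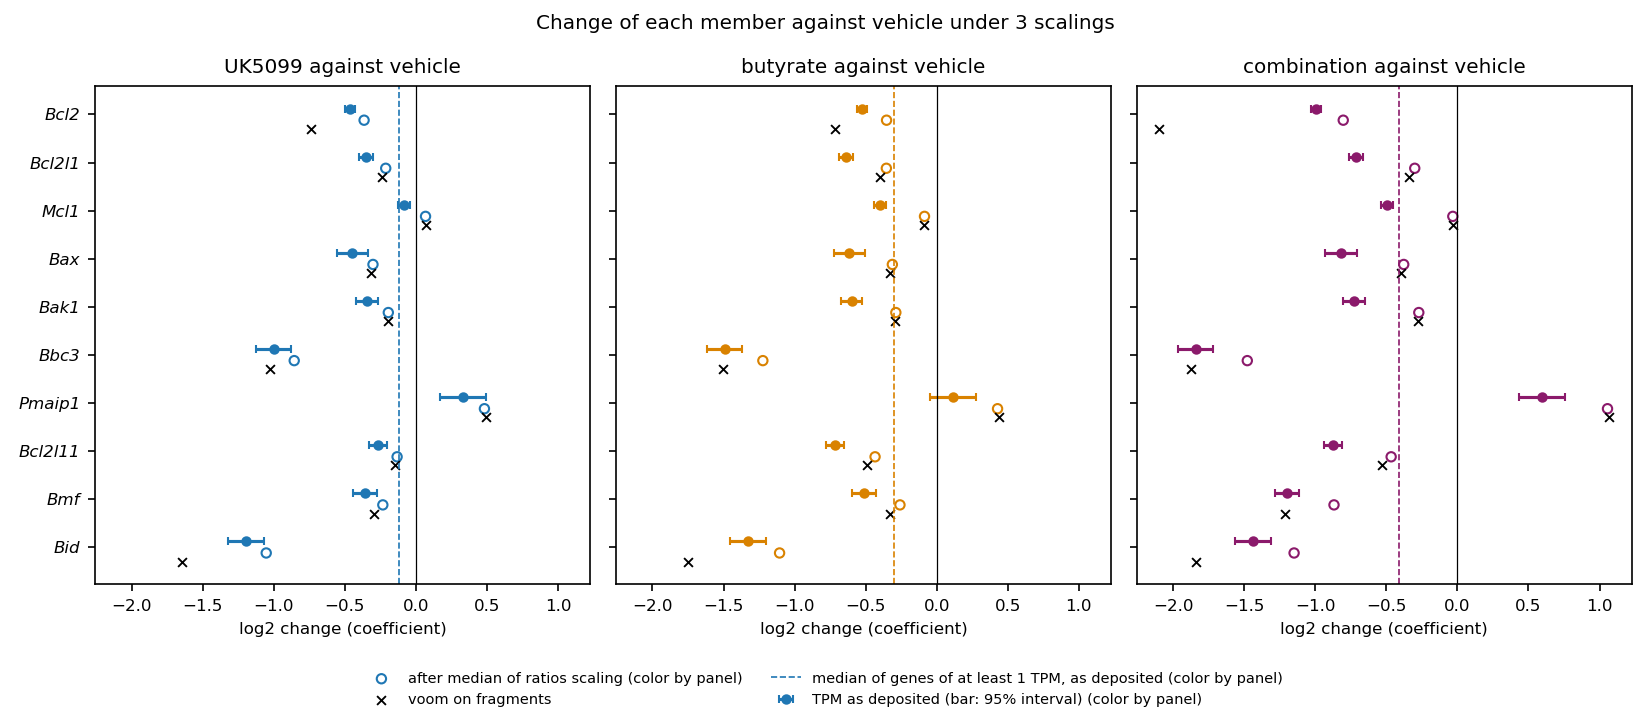
Log2 change (horizontal axes) of each member against vehicle for UK5099, butyrate and the combination. Filled points are log2(TPM + 1) coefficients with 95% intervals, open points the same after median of ratios scaling, crosses voom on fragments, and dashed lines the median of genes of at least 1 TPM; Bbc3 and Bid lie far to the left in all panels, Mcl1 falls at or near 0 once scaled, and Pmaip1 lies to the right of 0.

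Bcl2, the founding survival gene of the family, spans positions 106465908 to 106642005 of the minus strand of chromosome 1 in the deposited table, which names no genome build. Its TPM was 1.53, 1.47 and 1.49 in vehicle, 0.832, 0.796 and 0.791 under UK5099, 0.708, 0.734 and 0.755 under butyrate, and 0.261, 0.257 and 0.240 with the combination. Every treated sample lay below every vehicle sample, and every combination sample lay below every sample of either single treatment. The low TPM reflects the span of 176097 bases, since 1658 to 2184 fragments were counted in vehicle and 442 to 506 with the combination. Bcl2 fell under UK5099 by 0.47 ± 0.02 (SE; limma adjusted p = 2.66e-08), under butyrate by 0.53 ± 0.02 (adjusted p = 4.11e-09) and with the combination by 0.99 ± 0.02 (adjusted p = 6.60e-11). By voom, which is nearly free of the added 1, the levels were 0.598, 0.610 and 0.233 of vehicle.

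Bcl2l1, which encodes BCL-XL, lies at 152622588-152673649 of the minus strand of chromosome 2. Its TPM was 10.3-10.5 in vehicle, 7.68-8.12 under UK5099, 6.25-6.41 under butyrate and 5.82-6.10 with the combination, with no overlap between groups. It fell under UK5099 by 0.35 ± 0.02 (limma adjusted p = 1.27e-06), under butyrate by 0.64 ± 0.02 (adjusted p = 9.68e-09) and with the combination by 0.71 ± 0.02 (adjusted p = 2.42e-09). After median of ratios scaling the falls were by 0.21, 0.35 and 0.30, so the combination no longer lay below butyrate.

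Mcl1, the short-lived survival protein that NOXA targets, lies at 95566099-95570488 of the plus strand of chromosome 3. Its TPM was 374, 378 and 367 in vehicle, 344, 353 and 361 under UK5099, 280, 283 and 284 under butyrate, and 267, 264 and 262 with the combination. As deposited, the groups did not overlap and each treatment lay below vehicle. The UK5099 coefficient of -0.08 ± 0.02 (limma adjusted p = 0.00596) turned to 0.07 after median of ratios scaling (adjusted p = 0.0161), with the UK5099 samples then above vehicle, so no direction is given for it. Mcl1 fell under butyrate by 0.40 ± 0.02 (adjusted p = 7.00e-08), which was 0.09 after scaling (adjusted p = 0.00313). The combination coefficient of -0.50 ± 0.02 (adjusted p = 9.82e-09) was -0.03 after scaling (adjusted p = 0.167). After scaling, Mcl1 stood at 105%, 94.2% and 97.8% of vehicle, close to the typical gene under each treatment.

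The effectors Bax and Bak1 fell together and by moderate amounts. Bax lies at 45111121-45116323 of the minus strand of chromosome 7, and Bak1 at 27238784-27247984 of the minus strand of chromosome 17. Bax had 25.1-27.7 TPM in vehicle, 18.5-19.2 under UK5099, 16.1-17.9 under butyrate and 13.7-14.7 with the combination. It fell by 0.45 ± 0.05, 0.61 ± 0.05 and 0.82 ± 0.05 (limma adjusted p = 6.05e-05, 2.98e-06 and 2.52e-07). Bak1 had 69.1-71.5 TPM in vehicle, 53.8-57.3 under UK5099, 44.8-47.4 under butyrate and 41.1-44.1 with the combination. It fell by 0.34 ± 0.03, 0.60 ± 0.03 and 0.73 ± 0.03 (adjusted p = 2.78e-05, 2.38e-07 and 3.81e-08). After median of ratios scaling the effectors stood at 80.2%, 79.7% and 75.9% (Bax) and 87.2%, 81.6% and 82.6% (Bak1) of vehicle. Bak1 and Bcl2l1 had the most similar profiles of any pair of members, with a root mean square difference of 0.02 over the 4 centred group means, while Bbc3 and Pmaip1 were the most unlike at 0.88.

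Bbc3, which encodes the potent BH3-only protein PUMA and is a classical p53 target, lies at 16042318-16052131 of the plus strand of chromosome 7. Its TPM was 8.95, 8.67 and 8.85 in vehicle, 4.22, 3.59 and 3.95 under UK5099, 2.699, 2.30 and 2.49 under butyrate, and 1.63, 1.85 and 1.76 with the combination. The 4 groups were fully separated and ran down in that order. It fell under UK5099 by 0.999 ± 0.054 (limma adjusted p = 5.83e-07), under butyrate by 1.49 ± 0.05 (adjusted p = 1.49e-08) and with the combination by 1.84 ± 0.05 (adjusted p = 2.09e-09). After median of ratios scaling, the falls were by 0.86, 1.22 and 1.48. All 12 of its values came to whole fragments, from 176 to 725, with none of the fractions that a division of reads between genes would leave. The 3 genes whose 4 group means of log2(TPM + 1), each centred on the gene's own average, were most like those of Bbc3 were Plscr1, Gm5530 and Hs6st1 among 13344 searched. Their root mean square differences were 0.035, 0.051 and 0.057. Their deposited TPM in vehicle was 27.1, 53.9 and 76.7, which divides by genomic span and so does not rank them against Bbc3.

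Pmaip1, on chromosome 18, encodes NOXA. Its TPM was 92.6, 95.2 and 89.8 in vehicle, 113, 113 and 125 under UK5099, 106, 97.2 and 98.2 under butyrate, and 157, 129 and 137 with the combination. All treated samples lay above all vehicle samples, and the combination samples lay above all others. Pmaip1 rose under UK5099 by 0.33 ± 0.07 (limma adjusted p = 0.00409) and with the combination by 0.60 ± 0.07 (adjusted p = 4.73e-05). The UK5099 call was lost without vehicle replicate 1 (adjusted p = 0.0142), vehicle replicate 3 (0.0171) or UK5099 replicate 3 (0.0167). With butyrate the coefficient was 0.12 ± 0.07 (adjusted p = 0.218), and after median of ratios scaling 0.43 (adjusted p = 0.000707). On that scaling the 3 treatments stood at 140%, 135% and 210% of vehicle.

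Bcl2l11, which encodes BIM, lies at 127967958-128004468 of the plus strand of chromosome 2. Its TPM was 10.3-10.5 in vehicle, 8.33-8.61 under UK5099, 5.71-6.08 under butyrate and 5.02-5.45 with the combination, with no overlap. It fell under UK5099 by 0.27 ± 0.03 (limma adjusted p = 4.36e-05), under butyrate by 0.72 ± 0.03 (adjusted p = 2.47e-08) and with the combination by 0.87 ± 0.03 (adjusted p = 3.69e-09). After median of ratios scaling it stood at 90.2%, 71.1% and 69.2% of vehicle, so butyrate and the combination were nearly level.

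Bmf lies at 118359238-118380169 of the minus strand of chromosome 2. Its TPM was 4.62, 4.74 and 4.23 in vehicle, 3.38, 3.36 and 3.19 under UK5099, 2.84, 2.79 and 3.02 under butyrate, and 1.35, 1.46 and 1.41 with the combination. The combination samples lay far below both single treatments, which lay close to each other. Bmf fell by 0.36 ± 0.04 under UK5099 (limma adjusted p = 4.41e-05), by 0.51 ± 0.04 under butyrate (adjusted p = 1.67e-06) and by 1.20 ± 0.04 with the combination (adjusted p = 3.06e-09). By voom the levels were 0.814, 0.796 and 0.430 of vehicle. All 12 values were whole fragments, from 303 to 739. The 3 genes most like it by centred group means were Gm44250, Gm12261 and Gm48496, at root mean square differences of 0.020, 0.027 and 0.035.

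Bid lies at 120868891-120893815 of the minus strand of chromosome 6. Its TPM was 3.69, 3.90 and 3.76 in vehicle, 1.09, 1.14 and 1.04 under UK5099, 0.994, 0.756 and 0.964 under butyrate, and 0.734, 0.674 and 0.890 with the combination. All treated samples were far below vehicle, while butyrate and combination samples overlapped. Bid fell by 1.20 ± 0.06 under UK5099 (limma adjusted p = 2.08e-07), by 1.33 ± 0.06 under butyrate (adjusted p = 3.45e-08) and by 1.44 ± 0.06 with the combination (adjusted p = 1.12e-08). By voom the levels were 0.319, 0.297 and 0.279 of vehicle. Only 1 of its 12 values came to a whole fragment, so some of its reads were divided with other features and its level is uncertain. This check was made on values below 1000 fragments, which Bak1 and Pmaip1 did not have. Their fragments also came to fractions, such as 4209.8 for Bak1 in vehicle replicate 1 and 5913.8 for Pmaip1 in UK5099 replicate 1. Whether their reads were divided was not tested. The 3 genes most like it by centred group means were Ltb, Rec8 and Xaf1, at root mean square differences of 0.015, 0.058 and 0.073.

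The treatments were next compared with each other. Between butyrate and UK5099, 7 of 10 members passed the adjusted p, all lower under butyrate. In either direction, 37.5% of all genes and 57.4% of genes of at least 1 TPM passed. On both scalings 4 members were lower under butyrate, where 29.2% of genes of at least 1 TPM were, so the count lies near that share. These were Bcl2l1 (coefficient -0.29 ± 0.02, limma adjusted p = 3.46e-06), Mcl1 (-0.32 ± 0.02, adjusted p = 6.94e-07), Bbc3 (-0.49 ± 0.05, adjusted p = 4.75e-05) and Bcl2l11 (-0.45 ± 0.03, adjusted p = 1.12e-06). For Bid the difference missed the threshold, with a 95% interval of -0.26 to -0.01, and for Bax it was -0.28 to -0.06 (adjusted p = 0.0198).

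Between the combination and butyrate alone 7 of 10 members passed as deposited, where 27.5% of all genes and 43.4% of genes of at least 1 TPM did. On both scalings, where 13.9% of genes of at least 1 TPM were lower and 7.42% higher, Bcl2 fell by 0.47 ± 0.02 (limma adjusted p = 6.02e-08), Bmf by 0.69 ± 0.04 (adjusted p = 1.35e-06) and Bbc3 by 0.35 ± 0.05 (adjusted p = 0.000803), while Pmaip1 rose by 0.48 ± 0.07 (adjusted p = 0.000607). By voom the levels with the combination were 0.382, 0.541 and 0.773 of those under butyrate for Bcl2, Bmf and Bbc3, and 1.55 for Pmaip1. Between the combination and UK5099 alone 9 of 10 passed, where 43% of all genes and 66.4% of genes of at least 1 TPM did. On both scalings 6 were lower, where 30.7% of genes of at least 1 TPM were. Of these, Bmf (-0.84 ± 0.04, limma adjusted p = 7.96e-08), Bbc3 (-0.84 ± 0.05, adjusted p = 8.14e-07) and Bcl2 (-0.53 ± 0.02, adjusted p = 8.50e-09) stood at 0.529, 0.554 and 0.390 of their UK5099 levels by voom. These comparisons share samples with those against vehicle, and so are not independent of them.

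The interaction term asks whether the change with both drugs differs from the sum of the single changes. It passed for 4 of 10 members, where 13.4% of all genes and 20.1% of genes of at least 1 TPM passed. Bmf was lower with the combination than the sum (-0.33 ± 0.05, limma adjusted p = 0.00194). Bcl2l1 (0.28 ± 0.03, adjusted p = 0.000207), Bbc3 (0.65 ± 0.08, adjusted p = 0.000304) and Bid (1.09 ± 0.08, adjusted p = 1.54e-05) were higher than the sum, that is, their falls added up to less. Without both first replicates the Bmf term was -0.30 with an adjusted p of 0.0149. For Bid the sum of the single changes would put the level at -0.27 on the log2(TPM + 1) scale, below the floor of 0, so part of its term follows from the floor. Voom, whose floor lies far lower, gave 1.56 for Bid. For Bcl2 the term was 0.00 ± 0.02 on log2(TPM + 1), where its level is close to the floor, but -0.65 ± 0.07 by voom (adjusted p = 8.83e-08). Its term also passed with a pseudocount of 0.1 (-0.43, adjusted p = 0.000334) and with exonic length (-0.47, adjusted p = 0.000123). It missed the threshold under median of ratios scaling (-0.086, limma adjusted p = 0.0228) and quantile normalisation (-0.071, adjusted p = 0.0254). By voom the term passed for 6 members, among them Bak1 (limma adjusted p = 0.00176), which missed the threshold on log2(TPM + 1) (0.0115). The shares of genes above are for log2(TPM + 1). No share is given for voom, so its count has no background to be read against. By fragments, then, Bcl2 and Bmf were lower with both drugs than the product of the single changes, at 0.639 and 0.664 of it. Bcl2l1, Bak1, Bbc3 and Bid were 1.23, 1.16, 1.57 and 2.94 times that product.

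**Figure D3:**
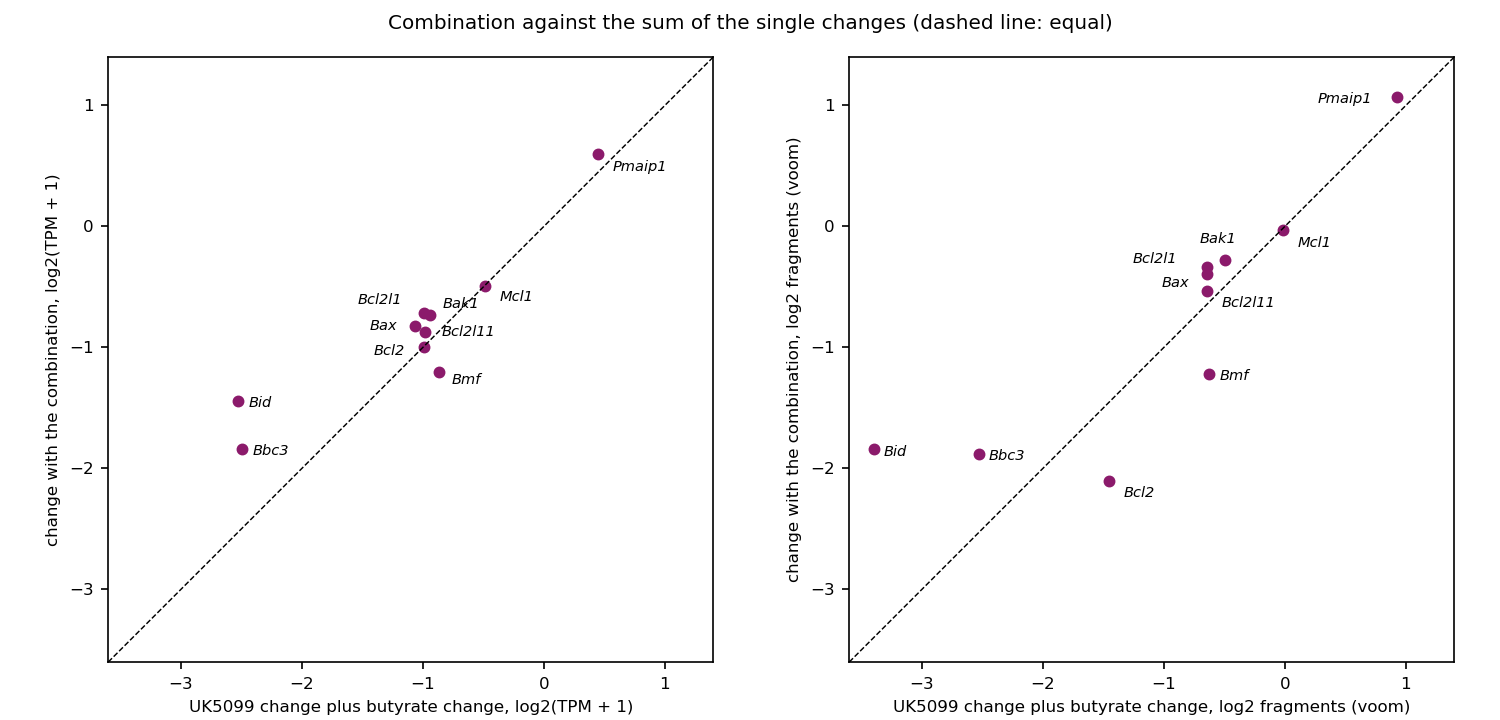
Change with the combination (vertical axis) against the sum of the UK5099 and butyrate changes (horizontal axis) for the 10 members, on log2(TPM + 1) at left and on log2 fragments by voom at right. The dashed line marks equality; Bid and Bbc3 lie above it in both panels, Bmf lies below it in both, and Bcl2 lies on it at left and below it at right.

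Ratios within a sample do not depend on the scaling between samples, and are given per exonic length as a description. The log2 ratio of Bcl2 to Bax was -1.64, -1.57 and -1.54 in vehicle, -1.98, -2.03 and -2.003 under UK5099, -1.97, -1.91 and -2.03 under butyrate, and -3.17, -3.29 and -3.40 with the combination. The ratio was thus lower in every treated sample, and lowest with both drugs. That of Mcl1 to its binding partner Pmaip1 was 1.01, 0.99 and 1.03 in vehicle, 0.60, 0.64 and 0.53 under UK5099, 0.40, 0.54 and 0.53 under butyrate, and -0.24, 0.03 and -0.06 with the combination. These 2 RNAs were therefore about equal per length with the combination. The ratio of Bcl2l1 to Bax was 0.35 to 0.46 in vehicle, 0.45 to 0.55 under UK5099, 0.23 to 0.43 under butyrate and 0.42 to 0.59 with the combination, so each treated group overlapped vehicle, while UK5099 and butyrate did not overlap each other. The ratio of Mcl1 to Bak1 was 0.79 to 0.86 in vehicle and 1.00 to 1.13 over the treated samples. Bcl2 against Bbc3 was -0.52 to -0.50 in vehicle, -0.29 to -0.12 under UK5099, 0.13 to 0.41 under butyrate and -0.82 to -0.58 with the combination, the lowest of the groups.

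The rest of the pathway was read from lists of related genes, with rises and falls counted only where they passed on both scalings. For comparison, 20.1%, 32.2% and 34.7% of genes of at least 1 TPM fell and 12.3%, 11.6% and 11.2% rose under UK5099, butyrate and the combination. As shares of a list, the counts below are to be read against these, and none was tested as a set. Of 9 other Bcl2 family genes found (Bcl2a1a, Bcl2a1b, Bcl2a1d, Bcl2l10 and Hrk were not analysed here), 3 fell and 2 rose under UK5099, 3 fell and 1 rose under butyrate, and 3 fell and 2 rose with the combination. Bok, a Bax-like protein, went from 34.1 ± 0.604 TPM in vehicle to 14.2 ± 0.444 under butyrate (coefficient -1.21, limma adjusted p = 6.87e-09) and 13.7 ± 0.654 with the combination (-1.26, adjusted p = 2.58e-09). The median coefficient of these genes after scaling was 0.01, -0.02 and 0.01, near that of all genes. Of 16 caspase and apoptosome genes, 5, 8 and 9 fell and 1, 1 and 0 rose under UK5099, butyrate and the combination. Casp8, the initiator caspase that cleaves BID, went from 13.1 TPM to 10.2, 5.35 and 4.88, with coefficients of -1.15 for butyrate (adjusted p = 2.42e-09) and -1.26 for the combination (adjusted p = 6.66e-10).

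Upstream of Bid, 9 death receptor genes were found (Fasl was not analysed here), of which 4, 6 and 6 fell and 1, 1 and 0 rose. Tnf, a ligand, went from 214 ± 3.21 TPM in vehicle to 130, 91.8 and 77.1 TPM (combination coefficient -1.46, limma adjusted p = 1.95e-08). The adaptor Fadd went from 21.8 to 15.7, 10.4 and 7.91 TPM (combination -1.36, adjusted p = 5.64e-09). The kinase Ripk1 went from 8.70 to 7.30, 4.89 and 3.82 TPM (combination -1.01, adjusted p = 8.80e-09). After scaling, the median of the death receptor list was -0.11, -0.44 and -0.58. Of 9 inhibitors of apoptosis found (Birc7 was not analysed here), 4, 4 and 8 fell and 0, 1 and 0 rose, with scaled medians of -0.10, -0.07 and -0.45. Naip5 and Naip6, which are better known as sensors of bacterial proteins than as caspase inhibitors, had UK5099 coefficients of -1.28 and -1.25 and combination coefficients of -1.78 (limma adjusted p = 3.97e-09) and -1.73 (adjusted p = 7.55e-10). They are near-identical copies, so reads may be split between them.

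Of 20 p53 target genes other than the members, 4, 4 and 8 fell and 6, 5 and 5 rose. Perp, a desmosome protein that is also a p63 target, rose under UK5099 by 1.17 (limma adjusted p = 2.17e-08) and with the combination by 1.32 (adjusted p = 1.64e-09). Mdm2, which degrades p53, fell with the combination by 1.01 (adjusted p = 2.55e-09), and Trp53inp1, a stress-induced partner of p53, by 1.12 (adjusted p = 5.23e-09). Of 13 transcription factors that act on BH3-only genes, 5, 3 and 4 fell and 4, 4 and 5 rose. Trp53 itself went from 72.1 ± 1.24 TPM to 49.1, 37.2 and 29.5 (combination coefficient -1.26, adjusted p = 5.59e-11). Atf3, a stress-response factor, fell under UK5099 by 1.37 (adjusted p = 9.84e-09), and Myc rose under butyrate by 1.18 (adjusted p = 7.15e-10) and with the combination by 1.24 (adjusted p = 2.51e-10). Of 15 partners and turnover factors, 5, 8 and 9 fell and 1 rose in each comparison, and Itpr3, a calcium channel that BCL-2 proteins bind, went from 43.8 to 21.0 TPM with the combination (-1.03, adjusted p = 2.44e-10). Scaled list medians for p53 targets, factors and partners with the combination were 0.08, 0.33 and -0.22, against -0.42 for the 10 members and 0.01 for all genes. These medians are descriptions.

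**Figure D4:**
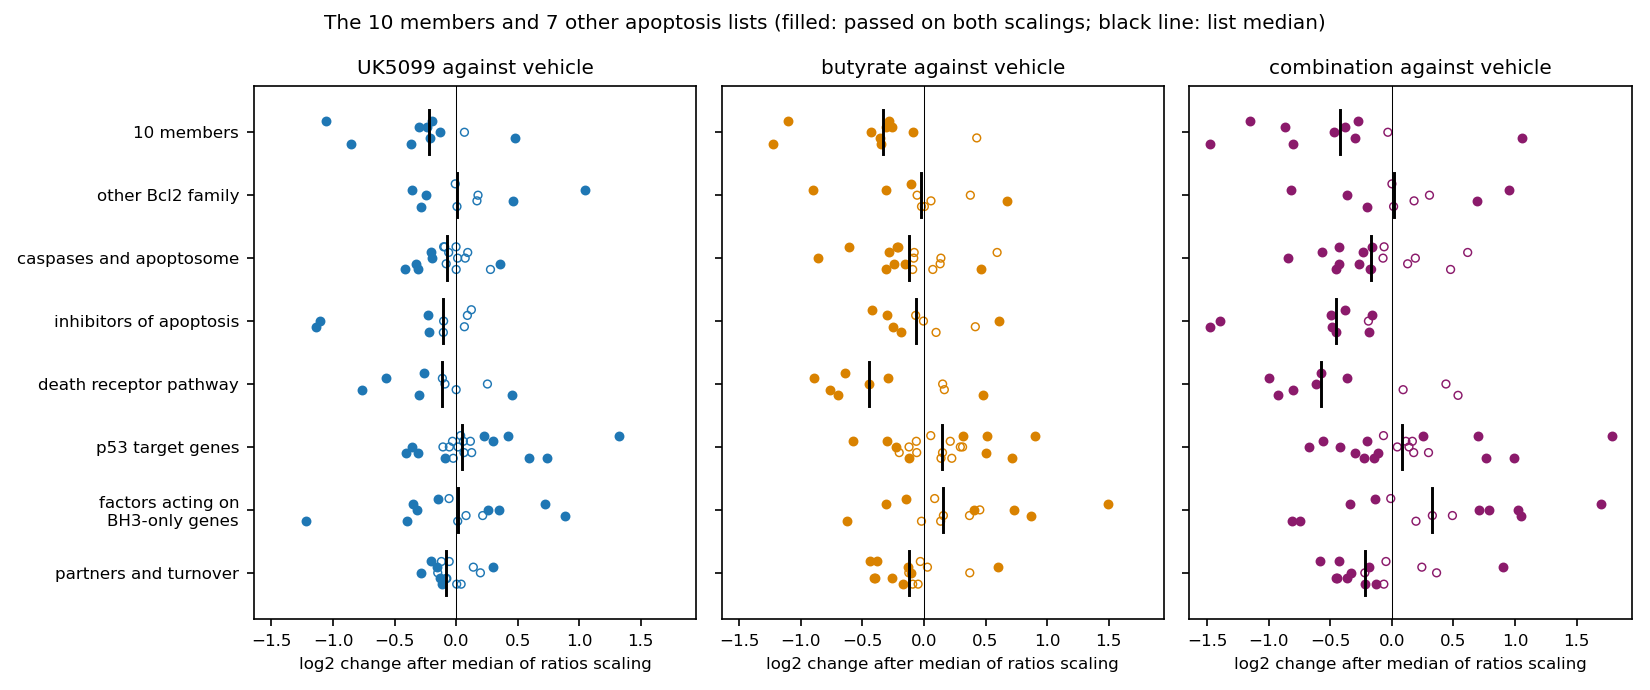
Log2 change after median of ratios scaling (horizontal axes) of the 10 members and of the genes of 7 other apoptosis lists, for UK5099, butyrate and the combination. Each point is a gene, filled where it passed on both scalings, and black lines are medians; with the combination the lines of the members (-0.42), the inhibitors of apoptosis (-0.45) and the death receptor list (-0.58) lie left of 0, and that of the factors acting on BH3-only genes (0.33) lies right.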

How the data were processed

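RNA-seq libraries of 12 organoid samples in 4 groups of 3 were analysed. Per the labels, ribosomal RNA was depleted, mRNA enriched and strand kept, and the submitters' processing notes name STAR 2.7.9a, Partek and GRCm39. The study's methods name fastp, STAR, RSEM and GRCm38. The authors deposited TPM per gene for 24674 genes. Gene length in the table equalled stop minus start for 100% of genes, so the deposited TPM divides by genomic span. The table names no build, and 2.18% of its nuclear genes had GRCm38 GENCODE coordinates, so positions are printed as given.

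Fragments were recovered from the steps between low TPM values. Of values above 0, 55.8% to 60.8% were whole within 0.02 of a fragment, so voom on them is an alternative, not the main test. The main fit, after the methods, was limma 3.58.1 in R 4.3.3 on log2(TPM + 1) with UK5099, butyrate and interaction terms, empirical Bayes moderation and p-values adjusted by Benjamini-Hochberg. A pseudocount of 1 was added, since the methods state none. Exonic lengths came from GENCODE. All replicate pairs differed by more than sampling noise, and each sample was counted. The fit was tested on simulated data: 184 of 200 changed genes were recovered for UK5099 and 177 of 200 for butyrate, with 15 and 6 of the unchanged genes called. Figures and windows were made with Python 3.11.15, numpy 2.4.6, pandas 2.3.3 and matplotlib 3.10.9.

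The members, gene lists and tests were chosen with earlier results of these data known. All 10 members are named. From each list, at most 4 genes past an adjusted p of 0.01 and an absolute coefficient of 1 for UK5099, butyrate or the combination are named, by size. The 3 genes most like each member past both limits are named. The contrasts of the combination with each single treatment were added after seeing the data. Alternatives were other pseudocounts, a filter, scalings, lengths, priors, thresholds, fits of 6 samples, a replicate block and leaving out samples.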

Additional observations from a re-analysis of the deposited data

Results flagged for a closer look

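For 4 members the change under UK5099 depended on whether butyrate was present, by the interaction term of the limma fit (adjusted p under 0.01 over all genes). The coefficient was 0.28 for Bcl2l1, 0.65 for Bbc3, -0.33 for Bmf and 1.09 for Bid. Without butyrate the UK5099 coefficient was -0.36 for Bmf, -0.35 for Bcl2l1, -0.999 for Bbc3 and -1.20 for Bid. In butyrate it was -0.69 for Bmf (limma adjusted p = 1.35e-06) and -0.35 for Bbc3 (adjusted p = 0.000803), while it missed the threshold for Bcl2l1 (-0.07, adjusted p = 0.0227) and Bid (-0.11, adjusted p = 0.176). Bid lies near the floor of the scale under every treatment, and its fragments are partly divided with other features. The groups of 3 samples are too small for a search for single samples far from the others.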

How the results depend on the processing

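The counts of members past an adjusted p of 0.01 for each treatment against vehicle stayed within 1.5 times under every alternative run. Alternatives were tallied for 58 member coefficients. Of their values under alternatives, 1230 kept their direction and side of the threshold, 63 lost a call, 19 gained one and 12 changed sign. Some alternatives cannot move a coefficient, among them the filter, the priors and leaving out a sample of a group not compared. For these only the p-value could change, so the first count overstates how far directions were tried. The number past both limits with UK5099 went from 1 to 2 (Bid, then also Bbc3) with a pseudocount of 0.1, voom, exonic length, nuclear protein-coding genes alone and both first replicates left out, the last 2 chosen after seeing the data. With 1 sample left out it ranged from 1 to 2. With the combination it went from 3 to 5 by voom. For the interaction it went from 1 to 0 under quantile normalisation. Members that differed between butyrate and UK5099 went from 7 to 4 under median of ratios scaling, quantile normalisation and voom. Those between the combination and butyrate went from 7 to 4 under median of ratios scaling, voom and fits of 6 samples. Past both limits there, 0 became 1 with a pseudocount of 0.1, voom and exonic length. Between the combination and UK5099, 0 became 3 with a pseudocount of 0.1 and 1 with voom and exonic length. Signs changed for the UK5099 coefficient of Mcl1 (0.067 under median of ratios scaling and 0.069 by voom), and for butyrate against UK5099 in Bcl2 (0.012 and 0.028 under the same settings), Bax (0.078, quantile) and Pmaip1 (0.036, quantile). They also changed for interaction values near 0. Bcl2 was 0.0027 without both first replicates and ranged from -0.013 to 0.0073 with 1 sample left out, and Mcl1 ranged from -0.031 to 0.0040. Outside this tally, the combination against butyrate also changed sign between the deposited values and median of ratios scaling. It went from -0.095 to 0.053 for Mcl1, from -0.075 to 0.054 for Bcl2l1 and from -0.13 to 0.015 for Bak1. Where no cause is named, the cause was not tested. Same-numbered samples did not deviate together: 18 pairs correlated at -0.11 to 0.03, 0 of them over 0.1, and 1 of 12 samples correlated best with its own number. With the replicate block 9, 9 and 10 members passed for UK5099, butyrate and the combination, 5 between butyrate and UK5099, and 4 for the interaction. Depth limits Bbc3, Bmf and Bid most, which had as few as 176, 303 and 162 fragments in a sample.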
